A study of Homo sapiens with 24 samples.

Results

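BT549 is an established human breast cancer cell line, described by the series as triple-negative, that is, without oestrogen receptor, progesterone receptor or HER2 amplification. The 6 libraries whose titles name BT549 were taken from the 24 libraries of the series: 3 came from cells given a hairpin RNA that targets ADAR1 by lentivirus (shADAR1) and 3 from cells given a non-targeting one (shNT). The other 18 libraries came from the lines HCC1806, MDAMB231 and MDAMB468 with the same arms and are used below only for comparison. All cells of both arms were infected for 24 h and then kept for 72 h in 2 µg/ml puromycin, which kills uninfected cells, and 1 µg of DNase-treated total RNA was depleted of ribosomal RNA, per the labels' protocols. The replicates are labelled as biological replicates of 1 cell line, so p-values measure the spread between such cultures. The labels give neither the hairpin sequences nor the number of hairpins per arm.

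ADAR1 is the enzyme, encoded by ADAR, that converts adenosine to inosine in double-stranded RNA. In human cells most edited positions lie in Alu repeats, which fold into long hairpins where copies of opposite orientation are transcribed together. Without editing, such RNA can be bound by the sensors MDA5 (IFIH1), PKR (EIF2AK2) and ZBP1, which are known to start interferon signalling, translational arrest and cell death. A short hairpin RNA is cut by Dicer and loaded into Argonaute, and the loaded strand, like a microRNA, can also lower transcripts that pair with bases 2 to 8 of it, its seed, through their 3′ untranslated region (3′ UTR). The title of the series refers to MDM2, to remodelled lipids and to ferroptosis, which is an iron-dependent cell death driven by peroxidised phospholipids, and lists for these were therefore examined along with those for double-stranded RNA.

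The libraries had the markers of a mesenchymal-like line. On the deposited per-length scale (RPKM, mean of the 6 libraries) VIM was at 470.3, SPARC at 611, FN1 at 135 and CDH2 at 47.9, whereas MMP2 of the same list was at 0.0441. The 14 epithelial markers summed to between 1.71 and 2.88 RPKM in shADAR1 and between 1.73 and 1.99 in shNT, with CDH1, EPCAM and KRT18 each under 0.04 on average. ESR1 and PGR were near 0, and ERBB2, which encodes HER2, was at 8.68 RPKM. Total counts were 59741481 to 97218217 in shADAR1 and 42744862 to 68987414 in shNT. Replicate 3 of both arms stood apart from the other libraries on the first principal component of log2 CPM (30.9% of the variance), and the arms separated on the second (20.7%). Counts of changed genes are therefore given with and without replicate 3 of both arms.

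The targeted transcript fell in every knockdown library. ADAR (ENSG00000160710, chromosome 1, 154582062 to 154627999, minus strand) was at 132, 117 and 155 CPM (counts relative to the TMM-scaled library total) in shADAR1 replicates 1 to 3. In shNT it was at 519, 503 and 527 CPM. The arms were far apart, and replicate 3 kept the most ADAR of the 3 knockdown libraries. Relative to control, 26.1% of the RNA was left (log2 fold change -1.94, SE 0.148, edgeR adjusted p 1.21e-07, n = 3 per arm). In RNA from whole cultures, fewer cells with ADAR and less ADAR per cell cannot be told apart.

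Including ADAR, 101 of 21352 tested genes passed an adjusted p of 0.05, with 28 higher and 73 lower in shADAR1 (0.473% of the genes tested, 0.131% higher and 0.342% lower). All 101 are protein coding, and in all of them the 3 libraries of one arm lay above all 3 of the other. Arms without overlap were also found in 8.24% of all tested genes upward and 6.43% downward, so this feature alone marks no gene. The changes were small: the rises had a median log2 fold change of 0.63 (0.41 to 1.10) and the falls one of -0.68 (-0.31 to -1.94). A change of more than 1 on the log2 scale was seen in 2 rises and 11 falls. In the fit that takes the replicate number as a block, all 101 were called again among 1098 genes (530 higher, 568 lower, 5.14%, 2.48% and 2.66% of those tested), so the balance between rises and falls depends on that choice. The fit without replicate 3 of both arms called 81 genes, 23 higher and 58 lower, of which 71 were among the 101. Without shADAR1 replicate 1, shADAR1 replicate 2, shNT replicate 1 or shNT replicate 2 the count was 65, 64, 64 or 61.

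**Figure D1:**
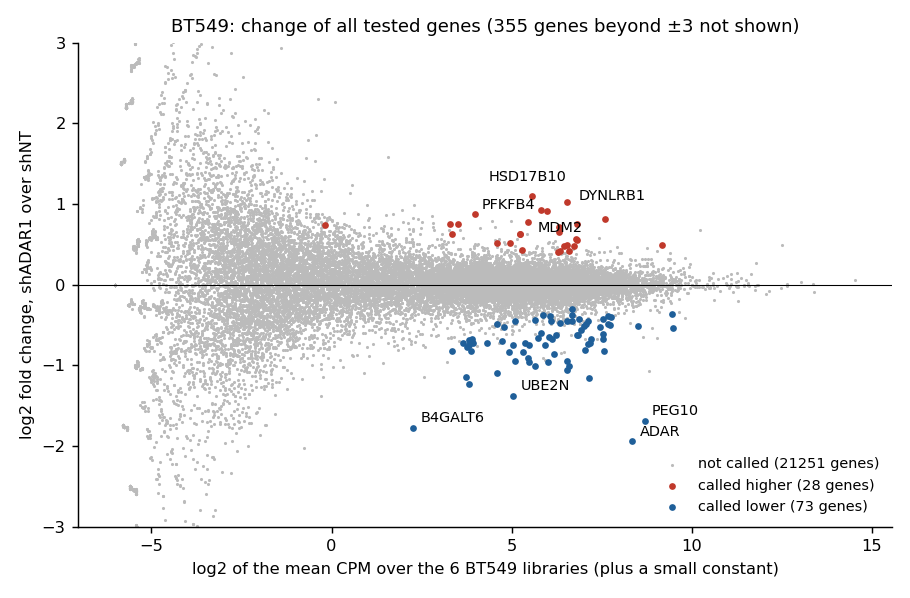
Log2 fold change of shADAR1 over shNT in BT549 (y axis) against the log2 of the mean CPM over the 6 libraries (x axis), 1 point per tested gene. The 28 genes called higher are red and the 73 called lower are blue. The uncalled genes, in grey, spread widest at low expression, and ADAR is the lowest of the called genes.

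The falls next in size to ADAR are given here with their known roles, and relations between these roles were not tested. B4GALT6, which makes lactosylceramide, the precursor of most glycosphingolipids, was at 1.56, 1.96 and 3.01 CPM in shADAR1 against 6.83, 7.37 and 8.17 in shNT (log2 fold change -1.77, SE 0.266, edgeR adjusted p 0.001). The retrotransposon-derived, imprinted gene PEG10 was at 204, 198 and 184 CPM against 665, 696 and 522 (-1.68, SE 0.175, edgeR adjusted p 1.16e-05). Both fell to about the share of control that ADAR kept, 29.2% for B4GALT6 and 31.2% for PEG10. UBE2N, the conjugating enzyme that builds lysine-63 ubiquitin chains, was at 17.3, 19.4 and 18.3 CPM against 44.9, 52.7 and 45.0 (-1.38, SE 0.151, edgeR adjusted p 2.05e-05). The membrane receptor ANTXR1, which binds collagen and anthrax toxin, was at 88.7, 86.1 and 86.1 CPM against 199, 206 and 178 (-1.16, SE 0.103, edgeR adjusted p 1.13e-06). For both genes the knockdown libraries lay close together and the control libraries spread more.

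MLX, the partner through which the glucose-responsive factors MondoA and ChREBP bind DNA, was at 14.5, 15.8 and 15.7 CPM in shADAR1. Its 3 control libraries had 33.0, 37.1 and 28.3 CPM (log2 fold change -1.10, SE 0.103, edgeR adjusted p 2.23e-06). The remaining 6 of the 12 largest falls were LITAF (-1.24), an endosomal membrane protein, SPOPL (-1.14), a substrate adaptor of cullin-3 ubiquitin ligases, MAN1A1 (-1.05), a Golgi mannosidase, SLC35A4 (-1.01), of the nucleotide sugar transporter family, DESI2 (-1.01) and OAT (-0.96), the mitochondrial ornithine aminotransferase. Their edgeR adjusted p-values were 0.0031 or lower. In MAN1A1 the knockdown libraries differed, with replicate 3 at 75.4 CPM and replicates 1 and 2 at 52.4 and 52.0, and all 3 stayed under the lowest control library at 117 CPM.

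Among the rises, the largest was HSD17B10, a mitochondrial dehydrogenase that is also a subunit of the RNase P that processes mitochondrial tRNAs. It was at 61.2, 74.5 and 57.2 CPM in shADAR1 and 29.2, 27.3 and 33.4 CPM in shNT (log2 fold change 1.10, SE 0.126, edgeR adjusted p 2.74e-05). DYNLRB1, a light chain of the dynein motor, rose next, from 58.6, 54.1 and 71.7 CPM to 119, 139 and 118 CPM (1.03, SE 0.172, edgeR adjusted p 0.00226). MDM2, a RING-type ubiquitin ligase, was at 71.5, 75.5 and 73.8 CPM in shADAR1 and 33.9, 34.5 and 47.9 CPM in shNT (0.93, SE 0.121, edgeR adjusted p 0.000209). Its control replicate 3 was the highest of the 3 controls, and without that library the log2 fold change of MDM2 was 1.11. This gene encodes the protein named in the series title, and its RNA stood at 190.0% of control.

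KATNAL1, a microtubule-severing ATPase, was at 77.3, 85.2 and 86.1 CPM against 39.0, 40.9 and 52.5 in control (log2 fold change 0.91, edgeR adjusted p 0.000675). PFKFB4, which sets the fructose 2,6-bisphosphate level that drives glycolysis, was at 20.4, 20.5 and 20.0 CPM against 11.1, 10.1 and 12.1 (0.87, edgeR adjusted p 0.00122). The tumour suppressor NF2, or merlin, was at 264, 243 and 222 CPM against 138, 132 and 146 (0.81, edgeR adjusted p 0.00122). In each of these genes all shADAR1 libraries lay above the highest control library. The rule for large rises also named NUDT19 (0.78), a peroxisomal coenzyme A diphosphatase, MAPRE3 (0.75), a microtubule plus-end protein, ALG9 (0.75), a mannosyltransferase of N-glycan assembly, and EIF4EBP2 (0.75), a repressor of cap-dependent translation. The last 2 were TMED4 (0.72), a cargo receptor of the early secretory pathway, and ERO1A (0.65), the oxidase that drives disulphide formation in the endoplasmic reticulum. Their edgeR adjusted p-values ran from 0.000209 for TMED4 to 0.0422 for MAPRE3.

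**Figure D2:**
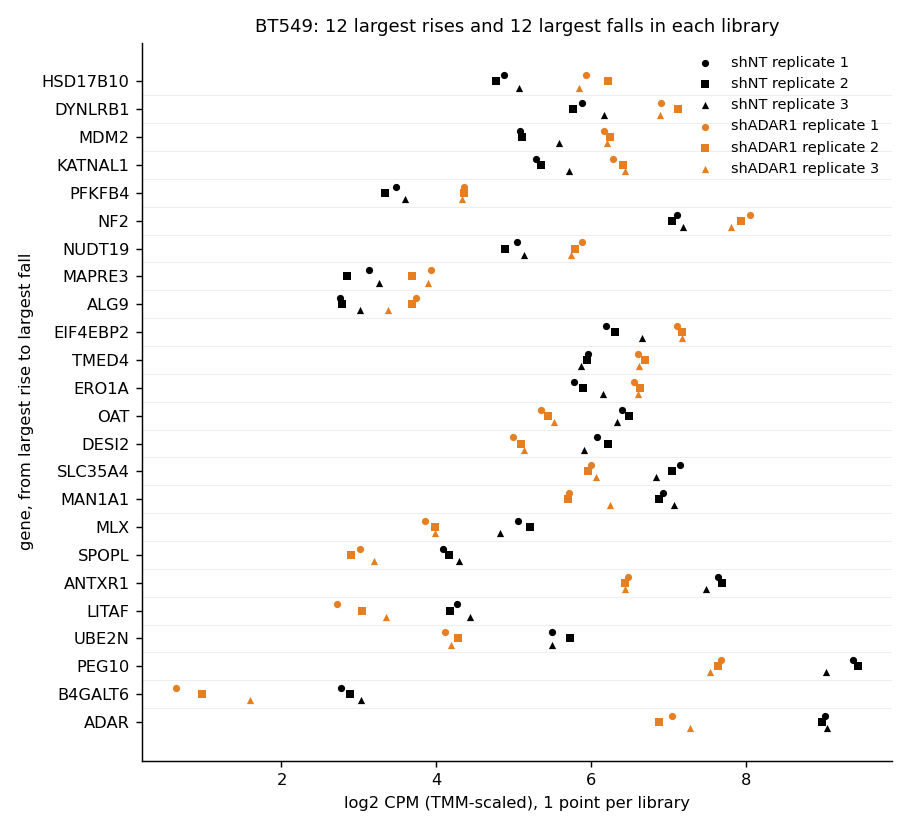
Log2 CPM (x axis) of the 12 largest rises and 12 largest falls (y axis) in each of the 6 libraries, shNT in black and shADAR1 in orange, with 1 symbol per replicate number. In every gene the 3 orange symbols lie on one side of the 3 black ones.

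The called genes were next compared by the sequence of their 3′ UTRs, because each arm carries its own hairpin. The longest GENCODE 29 3′ UTR of a basic protein-coding transcript was found for 16198 of the tested genes, including all 101 called. Every 7-base sequence held by at least 25% of the falls, or of the rises, was ranked by its share among them over its share among all 16198. The sequence ranked first among the falls was ATCTTCA, on the transcribed strand. It stood in 42 of the 73 falls (57.5%) against 14.2% of all tested genes and 1 of the 28 rises. Among the 12 largest falls it stood in 10, SLC35A4 and OAT being without it. The copies below are shown because they belong to the largest falls. Each line has 27 bases of the transcribed strand, 5′ to 3′, on GRCh38, with the 7 shared bases in capitals.

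ADAR, chr1:154582414-154582440, minus strand: gcccactgttATCTTCActttctttgt
B4GALT6, first of 3 copies, chr18:31624644-31624670, minus strand: aaaaaaaagtATCTTCAtttaaaaaga
PEG10, first of 4 copies, chr7:94665766-94665792, plus strand: aggctactgtATCTTCAggccacctga
UBE2N, chr12:93409907-93409933, minus strand: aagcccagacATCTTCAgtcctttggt
ANTXR1, first of 2 copies, chr2:69248038-69248064, plus strand: acaaggtgatATCTTCAtagtgggcta
MLX, first of 2 copies, chr17:42571744-42571770, plus strand: gccccattttATCTTCAgcggagccgc

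The rises had a different sequence in first place, GTCGCCC, also on the transcribed strand. It stood in 12 of the 28 rises (42.9%) against 4.28% of all tested genes and 2 of the 73 falls. Among the 12 largest rises it stood in 10, DYNLRB1 and ALG9 being without it. The reverse complement of GTCGCCC was in 1 of the 28 rises (3.57%) and in 4.03% of all tested genes, and that of ATCTTCA was in 20.5% of the falls and 16.4% of all. The lines below show copies from 3 of the largest rises in the same layout, and they do not stand for the other 12 of the 15 copies in the rises.

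HSD17B10, chrX:53431282-53431308, minus strand: ctgcctaccaGTCGCCCtctgtgccta
PFKFB4, chr3:48519041-48519067, minus strand: ggcagttgtgGTCGCCCctccccagtt
MAPRE3, chr2:27026593-27026619, plus strand: tctctgctgtGTCGCCCaacacttccc

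Seen from the side of the sequences, few of the genes that hold either one were called. Of 11801 genes with a 3′ UTR whose mean log2 CPM was 2 or higher, 0.619% fell and 0.237% rose. Falls made up 0.311% of the 9978 genes without ATCTTCA, 1.87% of the 1447 with 1 copy, 3.09% of the 291 with 2 and 7.06% of the 85 with 3 or more. The median log2 fold change was 0.02 without a copy, -0.01 with 1, -0.02 with 2 and -0.01 with 3 or more, so most genes with a copy moved little. For GTCGCCC, rises were 0.142% of the 11246 genes without a copy and 2.16% of the 555 with at least 1, with medians of 0.01 and 0.05. Above 0 were 64.7% of the latter and 53.5% of all 11801. With the replicate block, 192 of the 1823 genes with ATCTTCA and 359 of the 9978 without it fell, and 72 of the 555 with GTCGCCC and 433 of the 11246 without it rose.

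The 3′ UTRs of the falls (median 1929 bases) and rises (2117 bases) were longer than those of all tested genes (1230 bases), and a longer sequence holds more 7-base sequences by its length alone. Per kilobase, ATCTTCA occurred 0.355 times in the falls and 0.0935 times in all genes, and GTCGCCC 0.180 times in the rises and 0.0248 times in all. Among genes with 3′ UTRs above the median length, ATCTTCA was in 64.2% of the falls against 24.0% of all, and GTCGCCC in 45.5% of the rises against 7.27% of all. None of the 2370 mature human microRNA names in the RefSeq-derived table has bases 2 to 8 complementary to ATCTTCA or GTCGCCC. The sequences were picked from these same calls, so their shares are descriptions, and ATCTTCA had been seen in earlier results of these data. Whether pairing of a hairpin with either sequence has a part in these changes was not tested, since the hairpin sequences are not given.

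**Figure D3:**
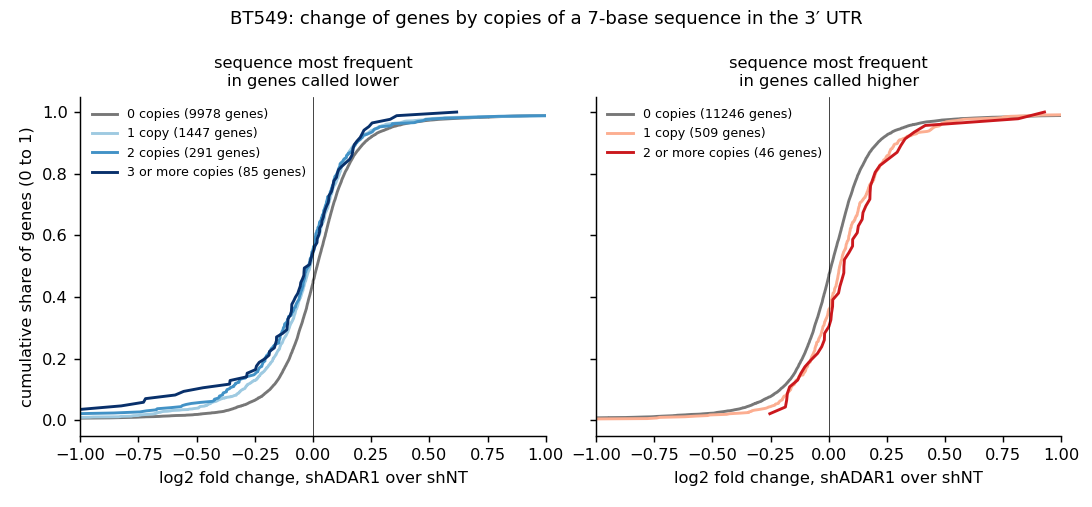
Cumulative share of genes (y axis) by log2 fold change of shADAR1 over shNT (x axis), for genes whose mean log2 CPM was 2 or higher, split by copies of the sequence most frequent in the falls (left, blue) or in the rises (right, red). Genes without a copy are grey. Curves of genes with copies lie to the left of grey in the left panel, most so in the lower tail of the 85 genes with 3 or more copies, and to the right of grey in the right panel.

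Alu-like stretches, matched with the Alu-derived part of BCYRN1 RNA, were in the 3′ UTRs of 10 of the 28 rises (35.7%), 21 of the 73 falls (28.8%) and 19.2% of all tested genes. Stretches on both strands of 1 UTR, the arrangement that can fold on itself, were in 1 rise, MDM2, in 6 falls (8.22%) and in 4.07% of all. Of the 575 genes with such pairs and a mean log2 CPM no lower than 2, 0.174% rose and 1.04% fell, and their median log2 fold change was 0.03 against 0.01 for all 11801. Among 3′ UTRs above the median length the share with a pair was 11.3% of the falls, 4.55% of the rises and 8.02% of all genes.

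Members of 25 gene lists were then examined, 623 different genes in all. Of these, 8 (1.28%, against 0.473% of all genes tested) were called: ADAR, B4GALT6, UBE2N, MLX and ACSL4 fell, and MDM2, HSD17B10 and PFKFB4 rose. No list had more than 1 called member, and 16 lists had none. With the replicate block 70 members (11.2%, against 5.14% of all genes) were called. The lists were drawn up with earlier results of these data known, so a share above that of all genes is no support for any list. A gene that did not pass is not thereby shown to be unchanged. List medians lay within 0.15 of 0 for 23 of the 25 lists, against a median of 0.01 over all genes tested.

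**Figure D4:**
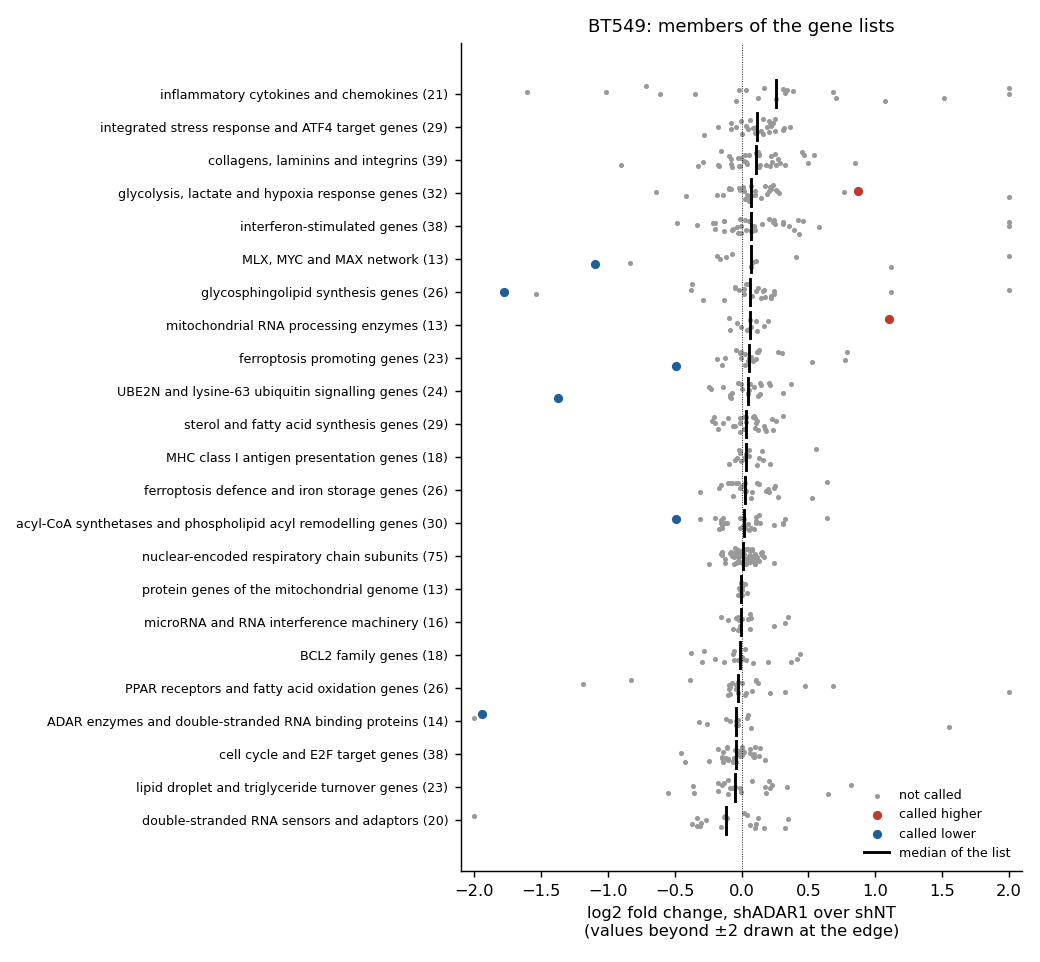
Log2 fold change (x axis) of every tested member of 23 of the lists (y axis, number tested in parentheses), with called members in red (higher) or blue (lower) and the list median as a black bar. Most members lie near 0, and each called member stands alone in its list.

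MDM4, the paralogue and partner of MDM2, was at 106, 113 and 115 CPM in shADAR1 and 83.8, 89.3 and 98.9 in shNT (log2 fold change 0.29, edgeR adjusted p 0.317, or 0.00174 with the replicate block). All 3 shADAR1 libraries of MDM4 lay above all 3 shNT libraries.

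The double-stranded RNA and interferon lists had no call other than ADAR. Among 14 ADAR enzymes and double-stranded RNA binding proteins 10 were below 0 (median -0.04). STAU1, which binds double-stranded RNA in decay and transport, was at 254, 259 and 259 CPM in shADAR1 and 304, 307 and 313 in shNT (log2 fold change -0.26, edgeR adjusted p 0.17, or 0.00478 with the block). Of 20 sensors and adaptors 11 were below 0, with a median of -0.12. MAVS, the adaptor of MDA5 and RIG-I, was at 411, 387 and 422 CPM against 521, 507 and 486 (-0.31, edgeR adjusted p 0.185, or 0.000914 with the block). The death kinase RIPK1 stood at 32.4 ± 1.74 against 41.9 ± 2.08 CPM (-0.37, edgeR adjusted p 0.301, or 0.00163 with the block). Both had arms that did not overlap. They were the 2 sensors and adaptors that the block called lower (10%, against 2.66% of all genes). The block called 1 other member of that list higher (5%, against 2.48%).

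Of 38 tested interferon-stimulated genes none passed, 23 were above 0 with a median of 0.07, against 0.01 over all genes, and 1 had an unadjusted p under 0.05. Such a p was found in 1370 of the 21352 genes tested. The block called only 1 of the 38, higher (2.63%, against 2.48% of all genes). It was DTX3L, a partner of PARP9 (log2 fold change 0.25, edgeR adjusted p 0.00965 with the block), with libraries at 63.6, 65.1 and 81.5 CPM against 50.3, 52.4 and 73.8. In that gene replicate 3 was the highest library of each arm. The classical members ISG15 (21.2 ± 2.04 against 23.2 ± 1.57 CPM) and IFIT1 (2.12 ± 0.283 against 2.42 ± 0.539 CPM), chosen afterwards for their role, had overlapping arms. Sensor transcripts were present at low to moderate level, with IFIH1 at 3.58 ± 1.08 against 3.19 ± 0.795 CPM and EIF2AK2 at 154 ± 2.91 against 144 ± 15.4 CPM. ZBP1 and the interferon-induced chemokine CXCL10 were under the filter, with at most 1 and 2 counts in any BT549 library. Of 18 antigen presentation genes of MHC class I, none passed and the median was 0.03.

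The integrated stress response list, which follows ATF4 once PKR or its sister kinases stop initiation, had more members above 0 than below and no call. Above 0 were 23 of 29 members, with a median of 0.12 and a range of -0.28 to 0.36, and 8 (27.6%, against 8.24% of all genes) had all shADAR1 libraries above all shNT libraries. MTHFD2, of mitochondrial folate metabolism, was at 95.3, 110.1 and 92.7 CPM against 84.6, 87.1 and 79.1 (0.25, edgeR adjusted p 0.672, or 0.049 with the block). With the block GDF15 (0.36), STC2 (0.31) and DDIT4 (0.31) were also called higher and ATF5 (-0.28) lower. ATF4 RNA was at 256 ± 7.30 against 250.4 ± 7.09 CPM. Over all tested genes 11247 of 21352 were above 0.

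ACSL4 was the single ferroptosis gene to pass. It encodes the ligase that charges arachidonate for entry into phospholipids, whose peroxidation drives ferroptosis. Its libraries were at 108, 116 and 109 CPM in shADAR1 and 151, 167 and 149.9 in shNT, 71.1% of control (log2 fold change -0.49, SE 0.109, edgeR adjusted p 0.0395). Across the 23 promoting genes 15 were above 0 and the median was 0.06, with ACSL4 as the only called member. The block also called VDAC2, a mitochondrial outer membrane channel, higher (0.27, edgeR adjusted p 0.0164) and TFRC, the transferrin receptor, lower (-0.18, edgeR adjusted p 0.0371) in that list. Of 26 defence and iron storage genes none passed, 16 were above 0 and the median was 0.03. With the block 4 of these (15.4%, against 2.48% of all genes) were called higher. They were SLC7A11, the cystine importer (0.52, edgeR adjusted p 0.524, or 0.000461 with the block), NFE2L2, the antioxidant regulator NRF2 (0.25, 0.727 or 0.00428), and the acyltransferases MBOAT1 (0.64, 0.317 or 0.00311) and MBOAT2 (0.24, 0.91 or 0.0176).

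SLC7A11 shows how the block acts. Its libraries were at 63.2, 71.2 and 92.9 CPM in shADAR1 and 40.5, 45.9 and 72.0 in shNT, so that the arms overlap, yet each shADAR1 library lay above the shNT library of its number. The peroxidase GPX4, named for its role afterwards, was at 269 ± 24.0 against 263 ± 46.3 CPM.

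Among 30 acyl-CoA synthetases and acyl remodelling genes ACSL4 alone passed and the median was 0.02. The block called 3 of them higher and 2 lower, 16.7% in all against 5.14% of all genes. In the list of lipid droplet and triglyceride genes none of 23 passed. There, GPAT3, an acyltransferase at the entry to triglyceride synthesis, was at 7.09, 6.96 and 6.22 CPM against 4.06, 3.94 and 3.47 (log2 fold change 0.82, edgeR adjusted p 0.125, or 6.79e-06 with the block). PLIN3, a droplet coat protein, was at 142, 137 and 141 CPM against 192, 188 and 159.8 (-0.36, edgeR adjusted p 0.123, or 0.00276 with the block). Both genes had arms clear of each other. PPARA, the receptor that induces fatty acid oxidation, had -0.38 (edgeR adjusted p 0.419, or 0.00562 with the block), and none of its 26-member list passed. None of 29 sterol and fatty acid synthesis genes passed, with a median of 0.03. In the glycosphingolipid list only B4GALT6 of 26 passed, and the block called 3 higher and 2 lower (19.2% in all). UGCG, which makes the glucosylceramide that B4GALT6 extends, was at 98.3, 107 and 105 CPM against 82.9, 91.2 and 88.1 (0.24, edgeR adjusted p 0.654, or 0.00672 with the block).

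Regulators among the largest changes were examined with their partners. Of the 13 tested members of the MLX, MYC and MAX network only MLX passed. TXNIP, a glucose-induced target of MondoA and MLX, was at 56.2, 58.7 and 74.9 CPM in shADAR1 against 109, 106 and 124 in shNT (log2 fold change -0.84, edgeR adjusted p 0.389, or 4.5e-06 with the block). The 3 libraries of each arm were clear of each other in TXNIP. Of 24 genes of lysine-63 ubiquitin signalling UBE2N alone passed, and TAB2 (-0.25) and RNF168 (-0.23) were called with the block. Among 13 mitochondrial RNA processing enzymes HSD17B10 alone passed. The 13 protein genes of the mitochondrial genome had a median of 0.00 and a range of -0.03 to 0.04, and 75 nuclear-encoded respiratory chain subunits had a median of 0.01, with no call in either list.

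Glycolytic and hypoxia genes held the most calls with the replicate block of the 25 lists. Of 32 members PFKFB4 passed and 23 were above 0, against 11247 of 21352 genes tested. In 3 members (9.38%, against 8.24% of all genes) all shADAR1 libraries lay above all shNT libraries. The block called 9 higher (28.1%, against 2.48% of all genes) and 2 lower (6.25%, against 2.66%). TPI1, triosephosphate isomerase, was at 298, 334 and 300.4 CPM against 548, 526 and 384 (log2 fold change -0.64, edgeR adjusted p 0.0943, or 0.000422 with the block). GPI (0.24) and BNIP3 (0.27) were called higher with the block, with overlapping arms. TPI1 thus went opposite to PFKFB4 within the same list.

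Secreted and matrix genes had single large differences that the shared spread of all 8 groups did not pass. The neutrophil chemokine CXCL5 was at 55.3, 65.9 and 69.6 CPM in shADAR1 and 122, 137 and 126 in shNT (log2 fold change -1.01, edgeR adjusted p 0.119, 0.00113 on the 6 BT549 libraries alone and 4.97e-07 with the block). ITGA4, the alpha 4 integrin, was at 39.2, 43.3 and 38.9 CPM against 81.6, 83.8 and 61.7 (-0.90, edgeR adjusted p 0.323, 0.00403 on the 6 libraries and 0.000105 with the block). COL1A1, the main chain of type I collagen, was at 6948, 6447 and 6784 CPM against 5221, 4693 and 4416 (0.49, edgeR adjusted p 0.666, 0.0364 on the 6 libraries and 2.84e-05 with the block). The arms were clear of each other in all 3 genes. None of 21 cytokines and none of 39 collagens, laminins and integrins passed. Of the cytokines 14 were above 0, with a median of 0.26. The block called 3 of them higher (14.3%, against 2.48% of all genes) and 1, CXCL5, lower (4.76%, against 2.66%). Of the collagens, laminins and integrins 25 were above 0, with a median of 0.11, and the block called 2 higher and 2 lower (5.13% each way).

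The lists of cell cycle, BCL2 family and microRNA machinery genes had no call. Of 38 cell cycle genes 24 were below 0 (median -0.04). CDC25A, the phosphatase that activates CDK2, was at 20.6, 21.8 and 20.9 CPM against 30.1, 28.0 and 26.8 (log2 fold change -0.42, edgeR adjusted p 0.195, or 0.00865 with the block). CCND1, cyclin D1, was at 79.1, 73.5 and 58.6 CPM against 101, 111 and 77.2 (-0.45, edgeR adjusted p 0.195, or 3.24e-05 with the block), and its arms overlapped. Among 18 BCL2 family genes the median was -0.01. The death genes BBC3 (0.44, edgeR adjusted p 0.439, or 0.0142 with the block) and PMAIP1 (0.37, edgeR adjusted p 0.948, or 0.0245 with the block) were called higher with the block only. These were 11.1% of the list, against 2.48% of all genes, and the block called 1 other member lower (5.56%, against 2.66%). Among 16 genes of the microRNA and RNA interference machinery the median was -0.01 too. The nearest to the threshold was DICER1, the nuclease that cuts hairpin precursors. DICER1 was at 102, 108 and 97.4 CPM against 80.6, 83.8 and 77.3 (0.35, SE 0.0808, edgeR adjusted p 0.0545, or 0.00011 with the block). AGO3, one of the Argonautes, had 0.32 (edgeR adjusted p 0.332, or 0.00376 with the block).

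The genes called in BT549 were then followed in the other lines, which have their own control libraries. In MDAMB231, 19 of the 28 rises and 67 of the 73 falls were called, 86 genes in all with the same sign (85.1% of the BT549 calls and 20.0% of the 429 calls of that line, which are 2.01% of genes tested). The median log2 fold change there was 0.53 over all 28 rises and -0.82 over all 73 falls. In HCC1806 the medians were 0.13 and -0.29 and 3 of the 101 were called, of 10 calls in that line (0.0468% of genes tested). In MDAMB468 they were 0.24 and -0.33 and 7 were called, of 8 calls in that line (0.0375% of genes tested). The sign was that of BT549 in 100, 94 and 97 of the 101 genes in MDAMB231, HCC1806 and MDAMB468.

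**Figure D5:**
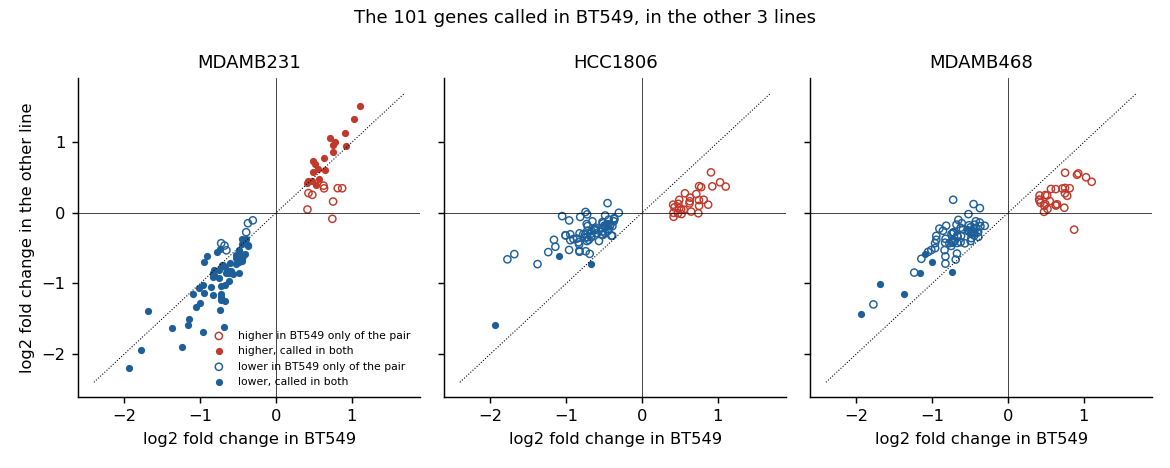
Log2 fold change of the 101 genes called in BT549 (x axis) against that in each other line (y axis), rises in red and falls in blue, filled where the other line called the gene too. In MDAMB231 points lie to both sides of the dotted line of equal change. Of the 28 rises 13, and of the 73 falls 17, changed more in BT549 than in MDAMB231. In HCC1806 and MDAMB468 most points lie nearer to 0 than that line.

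The same 7-base sequences were frequent in the calls of MDAMB231. ATCTTCA was in 47.6% of the 292 falls of that line that have a 3′ UTR, against 14.2% of all tested genes. GTCGCCC was in 24.0% of its 129 such rises, against 4.28% of all. In MDAMB468 all 7 falls hold ATCTTCA, and 2 of the 3 in HCC1806. All of these 7 and 3 falls are among the 73 BT549 falls from which ATCTTCA was picked, so their shares repeat that choice. In MDAMB231, 67 of the falls are among those 73, and 19 of the rises are among the 28 BT549 rises. The shares in MDAMB231 therefore repeat the choice only in part.

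In the main edgeR fit, which has no replicate block, no gene's change in BT549 differed from the other lines past the threshold. Against the mean of the other 3 lines 0 genes passed (610 at an unadjusted p under 0.05, where that share of all tested genes would be 1068), the smallest adjusted p being 0.893. With 610 below 1068, the 0 calls of this fit do not show that the lines changed alike. DESeq2 called 2 and the edgeR fit with the replicate block 112 (0.525% of genes), 19 of them among the 101. PFKFB4 had the smallest p: its log2 fold change was 0.87 in BT549 and 0.35, 0.12 and -0.24 in MDAMB231, HCC1806 and MDAMB468, a difference of 0.80 (SE 0.157, edgeR adjusted p 0.893, or 0.00218 with the block). CDKN2C, an inhibitor of CDK4 and CDK6, had libraries at 107, 108 and 110.3 CPM against 195, 196 and 145 in BT549. It differed from the others by -0.63 (SE 0.147, edgeR adjusted p 1, or 0.00472 with the block).

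Against MDAMB231 alone 0 genes passed (884 at an unadjusted p under 0.05, also below 1068) and the smallest edgeR adjusted p was 0.067, whereas DESeq2 called 7 and the block 180 (0.843% of genes), 7 of them among the 101. The lactate exporter SLC16A3 had that smallest p. It was at 5.25, 4.64 and 5.30 CPM in shADAR1 and 4.44, 4.62 and 5.40 in shNT of BT549, with overlapping arms, while its log2 fold change in MDAMB231 was 1.06 (difference -0.98, SE 0.167, blocked edgeR adjusted p 0.000342). ARRB2, a beta-arrestin, had -0.34 in BT549 and -1.15 in MDAMB231 (difference 0.81, edgeR adjusted p 0.463, or 0.0017 with the block). RAB11FIP2, a recycling endosome protein that holds ATCTTCA and was called in both lines, had -0.69 and -1.61 (difference 0.92, edgeR adjusted p 0.463, or 0.00491 with the block).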

How the data were processed

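Whole-number read counts per gene were deposited for each library, with CPM and RPKM beside them. Per the file headers, the authors' CPM values are counts relative to the library total and their RPKM values are CPM per kilobase of gene length. The submitters' processing notes name bcl2fastq, STAR, Subread, featureCounts and edgeR. Genome build, annotation and strand use are not given in the sources used here, so antisense and near-identical genes are uncertain. Of 37416 genes, 31357 had the coordinates of GENCODE 29 on GRCh38, and 33972 had a symbol in the name table.

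Counts of all 24 libraries were fitted with edgeR 4.0.16 in R 4.3.3 (filterByExpr, TMM, quasi-likelihood F test, 2-sided, 1 coefficient for each of 8 groups), leaving 21352 genes. P-values were adjusted by Benjamini-Hochberg across these genes and called under 0.05. Printed CPM are TMM-scaled. DESeq2 1.42.0 and a model with a replicate block within each line were alternatives. Same-numbered BT549 libraries deviated together from their group means (r 0.139, 0.158 and 0.250), so the block reads the numbers as pairs. The main fit does not use this pairing, and its p-values are unpaired. The edgeR fit was tested on simulated data.

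Genes named are ADAR, MDM2, the 12 largest rises and 12 largest falls (called, arms apart, at least 5 CPM in the higher arm), up to 4 members per list with the smallest p and at least 1 CPM, and 5 per difference between lines whose mean log2 CPM was 2 or higher. The libraries, lists and 7-base sequences were chosen with earlier results of these data known. Alu-like stretches were blastn matches (at least 80 bases, E-value up to 1e-05) of the first 120 bases of BCYRN1. Results for 1 gene, the lists that depend on it and some sequences are not reported here.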

Additional observations from a re-analysis of the deposited data

How the results depend on the processing

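All 101 genes called in BT549 kept their direction in each of the 16 alternatives run for that comparison. Their arms do not overlap, so a change of direction was hardly possible. The replicate block and DESeq2 called all 101 again, and the fit without a filter called 75 of them. With 1 BT549 library left out, 58 (without shNT replicate 2) to 82 (without shNT replicate 3) of the 101 were still called. For BT549 shADAR1 against shNT, the count of 101 (28 called higher, 73 called lower) became 1098 (530 and 568) with the replicate block, 226 (62 and 164) on the 6 BT549 libraries alone, and 1430 (612 and 818) on those 6 with the block. DESeq2 called 279 (80 and 199), and requiring at least 10 counts in every library gave 185 (48 and 137). Leaving out each BT549 library in turn gave 61 to 108 genes, 15 to 29 higher and 45 to 79 lower. RLE scaling, upper-quartile scaling, no filter, leaving out mitochondrial and structural RNA genes, and the fit without replicate 3 of both arms, the last chosen after seeing the data, kept the counts within 1.5 times. Called list members went from 8 to 70 with the block, 16 on the 6 libraries, 80 on the 6 with the block and 16 with DESeq2. Against the mean of the other 3 lines, 0 genes became 112 with the block and 2 with DESeq2, and leaving out each BT549 library gave 0 to 0. Against MDAMB231, 0 became 180 with the block, 7 with DESeq2 and 1 without a filter, and leaving out each library of either line gave 0 to 2, the 2 without MDAMB231 shADAR1 replicate 2. The share of falls with ATCTTCA ran from 32.4% (6 libraries with the block) to 69.6%, and that of rises with GTCGCCC from 14.1% (block) to 66.7%. ZBP1 and CXCL10 had too few counts to be tested. The cause of these moves was not tested.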
